A study of Homo sapiens with 2 samples.

Results

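The metallothionein gene cluster of human chromosome 16 was examined in Huh-7 cells, an established hepatocellular carcinoma line, exposed for 24 h to 0.1 mM BS008, an amiloride derivative, or to 0.1% DMSO as the control. The cluster was taken as all exon rows of the deposited tables, on either strand, that lie inside chr16:56598000-56719000 in the files' coordinates. Of the 239322 exon rows listed, 42 lay in this window. Of these 42, 27 fell in the intervals of 10 genes, namely MT3, MT2A, MT1E, MT1M, MT1A, MT1B, MT1F, MT1G, MT1H and MT1X, and 15 lay between or before them. The window was chosen because rows in it had the largest increases between these same libraries, so the levels and ratios given here describe the members and no test was made of them. RNA sequencing had been done to examine alternative splicing (AS) under BS008, and the deposited values are reads counted on exons, with 1 library for each condition. The per-sample treatment labels give DMSO for one library and BS008 for the other, whereas the general treatment text of both samples names BS008, and groups were taken from the per-sample labels. The libraries held 55476654 (control) and 53578432 (BS008) reads on exons. Intervals given below are 95% and cover counting error only, because no condition had a second library, and an effect of BS008 cannot be told apart from a difference between cultures or library preparations. Other markers of the Huh-7 line were not checked, since the files name no genes.

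Metallothioneins are small proteins very rich in cysteine, whose thiol groups bind zinc and copper and can also take up cadmium. In the liver they buffer zinc and are among the genes that respond most to metals. Their transcription is controlled chiefly by MTF1, a zinc-sensing factor that binds metal response elements, short motifs found in several copies close to the start of these genes. MT2A and the MT1 genes are used in many tissues, whereas MT3 is best known from the brain and MT4 from stratified epithelia.

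The coding sequences of the gene with the most reads (MT2A) and of the gene with the largest ratio (MT1B) are shown because the cysteine codons make the family recognizable. They were read from GENCODE release 29 transcripts, 5′ to 3′, with the codons TGC and TGT in capitals and the stop codon left out.
MT2A: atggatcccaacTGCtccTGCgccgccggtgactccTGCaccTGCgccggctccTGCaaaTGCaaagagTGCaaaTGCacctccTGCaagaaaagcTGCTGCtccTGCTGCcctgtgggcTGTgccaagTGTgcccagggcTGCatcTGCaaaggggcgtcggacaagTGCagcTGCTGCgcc
MT1B: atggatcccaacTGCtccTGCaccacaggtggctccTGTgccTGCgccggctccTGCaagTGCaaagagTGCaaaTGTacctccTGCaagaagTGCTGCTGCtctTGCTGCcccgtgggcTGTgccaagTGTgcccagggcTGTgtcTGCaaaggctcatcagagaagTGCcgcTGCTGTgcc
Both sequences have 61 codons, of which 20 code for cysteine in MT2A and 21 in MT1B. MT1E, MT1M, MT1F, MT1H and MT1X had 20 cysteine codons in 61, MT1G had 20 in 62 and MT3 had 20 in 68. Identity between the coding sequences of these 9 genes was 88.2 to 93.5% over the 28 pairs without MT3 and 72.1 to 76.0% over the 8 pairs with MT3.

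The files carry no gene names, so the names rest on the intervals and, except for MT3, were checked by structure. All 17 introns between neighbouring rows of a gene had the length of an intron that GENCODE gives for the same gene, and 13 of the 27 rows had the length of one of its exons. Only lengths were compared, as GENCODE is on GRCh38 and the submitters' processing notes name hg19. In MT1E the intron matched but neither row had the length of a GENCODE exon. MT3 is listed as a single row of 1733 bases with no intron, so its spliced exons were not counted apart. That length is not one of its GENCODE exons, so the name of MT3 rests on the interval alone.

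The cluster held 19160 reads in the control library and 902300 in the BS008 library. This was 0.0345% (interval 0.0340 to 0.0350%, exact binomial) of the library in the control and 1.68% (1.68 to 1.69%) after BS008, a ratio of 48.8-fold (48.1 to 49.5). The smallest share that 3 counts can show was 5.41e-06% and 5.60e-06%, respectively. The 10 genes held 99.7% of the cluster's reads in each library. In bulk RNA, more cells that express these genes and more RNA per cell cannot be told apart.

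The change of each row was measured as the log2 ratio of BS008 to control on CPM values (counts scaled to the library total), after adding 0.5 CPM to both. At least 10 reads in either library were found on 37 of the 42 rows, and all 37 were at least 2-fold higher after BS008. Rows with under 10 control reads, among them all rows of MT1B, passed this minimum only through the BS008 library, where they were high. Over the whole table, 3.73% of the 131330 rows with that many reads were at least 2-fold higher. The log2 ratios of the 37 rows ran from 1.76 to 8.21 with a median of 5.32, while the median over all rows was -0.04. By this ratio, 24 of the 37 rows were at least 16-fold higher, against 0.0358% of all rows. Because the window was chosen on this contrast, nothing further is read from these shares. The added 0.5 CPM lowers the ratio of rows with few control reads, so the count at 16-fold and the minimum of 1.76 depend on it. The row with 1.76 had 0 reads in the control and 64 after BS008. The row at 56677716 to 56677920, with 2 and 400 reads, had a log2 ratio of 3.89 but was 207-fold higher without the added 0.5 CPM. The 5 rows that did not reach 10 reads were the MT3 row, the 3 rows before it and the single row between MT1H and MT1X.

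**Figure D1:**
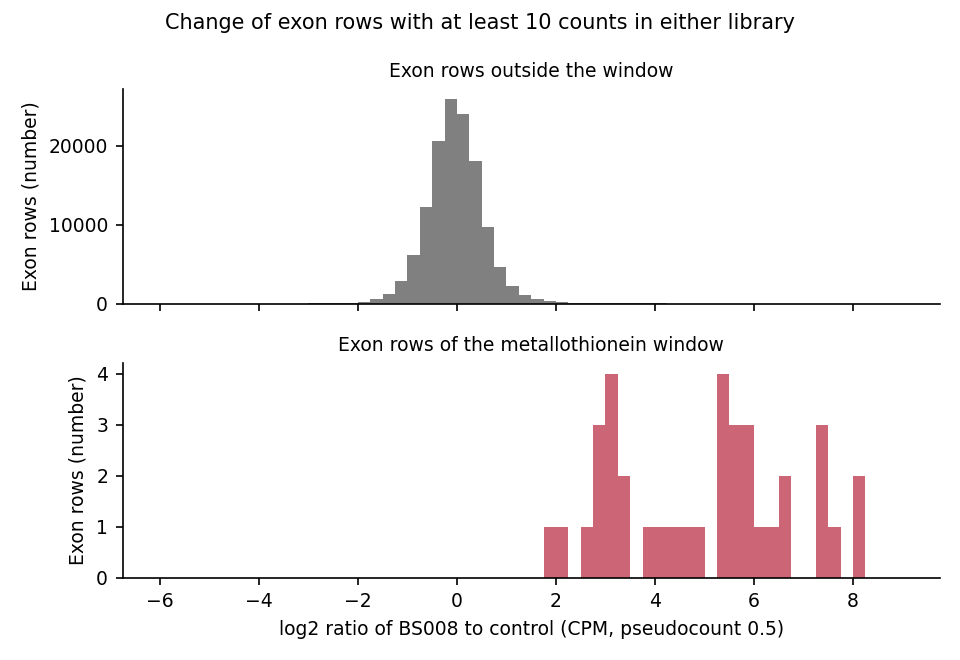
Number of exon rows (vertical axes) by log2 ratio of BS008 to control (horizontal axis) for rows with at least 10 counts in either library, outside the window (top) and inside it (bottom). The 37 rows inside lie between 1.76 and 8.21, while rows outside centre near 0.

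The members are described first by their level in each library and then by their ratio. Levels are RPKM over the exon rows of a gene, that is, reads per kilobase of exon, scaled to the library like CPM, so that genes of different length can be compared. MT2A, the most widely used metallothionein gene, had 9653 reads in the control and 436248 after BS008. Its level was 416 RPKM (408 to 425, exact Poisson) in the control and 19479 RPKM (19421 to 19537) after BS008, a ratio of 46.8-fold (45.9 to 47.8). It was the highest member in both libraries and held 50.4% and 48.3% of the cluster's reads. Its middle exon of 66 bases (56642904 to 56642969) went from 836 to 38867 RPKM. By RPKM this exon ranked 396 among all exon rows in the control and 1, ahead of every mitochondrial row, after BS008. The first and last exons of MT2A ranked 3 and 5 after BS008. How reads that span neighbouring exons were counted is not given in the sources used here, and the RPKM of so short a row may depend on it.

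MT1G, the member on the minus strand, had 2537 reads in the control and 135609 after BS008. Its level went from 115 to 6343 RPKM, a ratio of 55.3-fold (53.2 to 57.6). MT1E had 3696 and 145169 reads, with levels of 78.2 and 3180 RPKM and a ratio of 40.7-fold (39.4 to 42.0). MT2A, MT1E and MT1G were the 3 genes with the most reads in each library and together held 82.9% of the cluster's reads in the control and 79.5% after BS008. MT1X had 889 reads in the control and 54410 after BS008 (28.7 and 1817 RPKM), which was 63.4-fold higher (59.3 to 67.8). MT1F had 1427 and 36436 reads (58.5 and 1546 RPKM), which was 26.4-fold higher (25.1 to 27.9). The ratios of these 5 genes thus ran from 26.4 to 63.4, and none of their counting intervals reached that of another.

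The 3 members that were lowest in control cells after MT3, namely MT1M, MT1H and MT1B, had the largest ratios. The control level is the denominator of the ratio, so these orders are linked in part by construction. MT1M had 230 reads in the control and 50709 after BS008 (9.44 and 2156 RPKM), 228-fold higher (201 to 261). MT1H had 68 and 13822 reads (3.10 and 651 RPKM), 210-fold higher (166 to 271). The intervals of the ratios of MT1M and MT1H overlap. With the longest row of MT1H alone its log2 ratio was 6.58 instead of 7.23. Without the added 0.5 CPM that row was 176-fold higher (125 to 255), an interval that overlaps that of the gene. The counts of MT1B were 4 in the control and 21784 after BS008. Its level went from 0.190 RPKM (0.0518 to 0.487) to 1073 RPKM (1059 to 1087). The ratio was 5639, and with only 4 control reads its counting interval was wide, from 2202 to 20698. The log2 ratio of MT1B, 9.47 with a pseudocount of 0.5, depends on the pseudocount and was 11.21 with 0.1 and 8.57 with 1.

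MT1A stood at the other end. It had 589 reads in the control and 5214 after BS008, and its level went from 26.9 to 247 RPKM. Its ratio of 9.17-fold (8.416 to 9.998) was the smallest among the 9 genes with at least 10 reads. In control cells MT1A and MT1X were at similar levels (26.9 RPKM, 24.8 to 29.2, and 28.7 RPKM, 26.8 to 30.6), with overlapping intervals, but after BS008 MT1X was at 1817 RPKM (1801 to 1832) and MT1A at 247 RPKM (240 to 254). MT3, the brain form, was at 0 in the control library and had 7 reads on its single row in the BS008 library, which is at least 2.42-fold higher when 3 counts are taken as the floor of the control library. The lower limit of its ratio was 1.49 when the counting error of both libraries was included. At 0.0754 RPKM it remained the lowest member.

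**Figure D2:**
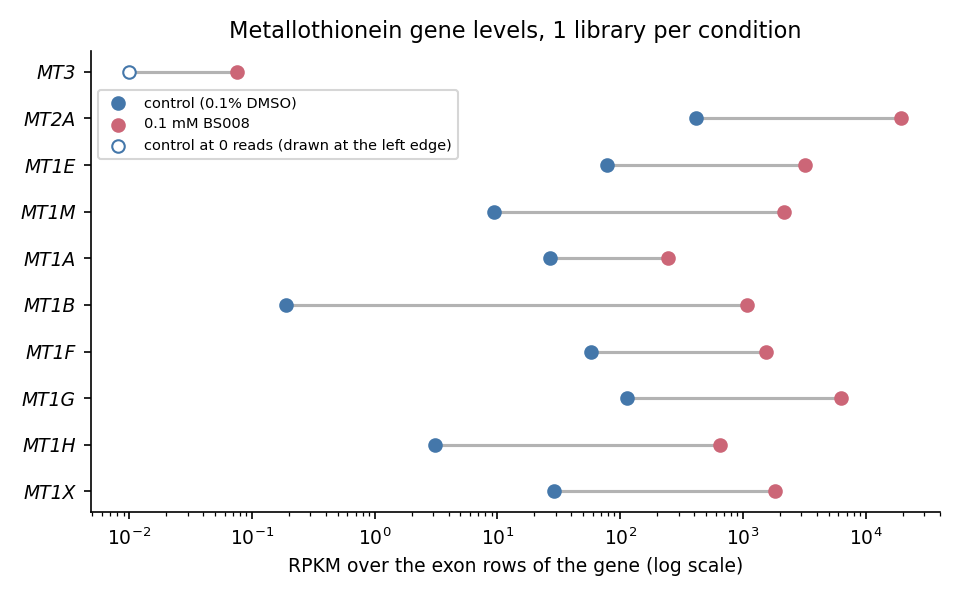
Level of each of the 10 genes as RPKM on a log axis (horizontal) in the control library (blue) and the BS008 library (red), joined by a grey line. MT1B has the longest line, from 0.190 to 1073 RPKM, and MT1A the shortest among genes with at least 10 reads, and the open point marks MT3 with 0 control reads.

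The order of the genes by level changed between the libraries. In control cells it was MT2A, MT1G, MT1E, MT1F, MT1X, MT1A, MT1M, MT1H, MT1B and MT3. After BS008 it was MT2A, MT1G, MT1E, MT1M, MT1X, MT1F, MT1B, MT1H, MT1A and MT3. The 3 highest genes, MT1X, MT1H and MT3 kept their places, while MT1M moved from place 7 to 4, MT1B from 9 to 7, MT1F from 4 to 6 and MT1A from 6 to 9. Apart from MT1X and MT1A in control cells, no gene had a counting interval that reached the next lower gene. The rank correlation of the 2 orders was 0.84 (Spearman, 10 genes that share the libraries and some sequence). In terms of the cluster's reads, MT1A went from 3.07% (2.83 to 3.33%) to 0.578% (0.562 to 0.594%), while MT1M went from 1.20% (1.05 to 1.36%) to 5.62% (5.57 to 5.67%) and MT1B from 0.0209% (0.00569 to 0.0534%) to 2.41% (2.38 to 2.45%).

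Along the chromosome, rows of the same gene had similar ratios in several genes and neighbouring genes could differ widely. The 3 rows of MT2A had log2 ratios of 5.52, 5.53 and 5.55, and the 3 rows of MT1M had 7.36, 7.42 and 7.39. MT1A, the next gene of the list after MT1M, had 2.80, 3.001 and 3.15. The rows of MT1X differed from each other, at 67.6-fold (59.2 to 77.6), 78.4-fold (70.6 to 87.3) and 43.4-fold (38.8 to 48.7). The interval of the last row of MT1X lay below those of the other two, and with that row alone, the longest, the log2 ratio of the gene was 5.32 instead of 5.94. Among the rows of MT1B the control counts were 1, 0 and 3, and the BS008 counts were 5152, 7855 and 8777. Each exon of MT1B therefore had at least 5152 reads in one library and almost none in the other.

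**Figure D3:**
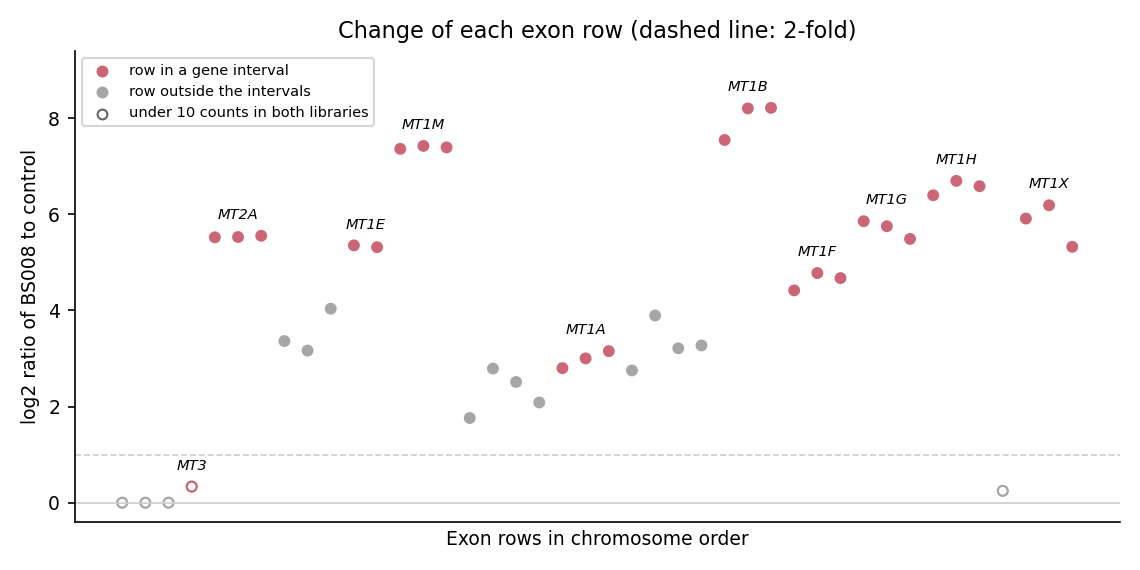
The log2 ratio of BS008 to control (vertical axis) for each of the 42 exon rows of the window in chromosome order (horizontal axis), in red for rows of the 10 genes and in grey for the other rows. Rows of most genes lie close to each other in height, from MT1A at 2.80 to 3.15 up to MT1B at 7.54 to 8.21, and open points near 0 had under 10 counts in both libraries.

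The 15 rows outside the gene intervals were given by their coordinates only. RefSeq on GRCh38.p14 lists MT4 before MT3, and the pseudogenes MT1L, MT1JP, MT1DP, MT1CP and MT1IP among the genes that follow, but these names were not assigned to rows. The 3 rows between MT2A and MT1E (56651373 to 56652729) had 25 reads in the control and 1151 after BS008, 47.7-fold higher (32.1 to 74.0). The 4 rows between MT1M and MT1A (56669651 to 56670998) had 18 and 541 reads, 31.1-fold higher (19.5 to 52.9), although 3 of them overlap another row and share reads with it. The 4 rows between MT1A and MT1B (56677599 to 56678852) had 24 and 1195 reads, 51.6-fold higher (34.5 to 80.8). Even after BS008 these 3 groups stayed low, at 8.78 to 50.5 RPKM. The 3 rows before MT3 (56598961 to 56602869) had 0 reads in both libraries, and the row between MT1H and MT1X (56709649 to 56711675) had 0 and 5. The window thus also held rows with under 10 reads in both libraries.

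Near-identical copies can exchange reads, and how the authors placed reads with several matches is not given in the sources used here. As a measure of this, every stretch of 50 bases of a member's GENCODE transcript was looked for in the transcripts of all other genes, leaving out genes that overlap the member. The percent found elsewhere was highest for MT1H (20.4%), MT1G (20.2%) and MT1X (15.96%), lay between 3.59 and 7.05% for MT1M, MT1A, MT1E, MT2A and MT1F, and was 0 for MT1B and MT3. With stretches of 36 bases it was 2.899% for MT1B and 31.8% for MT1H. By these percents, values of MT1H, MT1G and MT1X were the least certain to belong to that gene alone. The percent is taken over the whole transcript, whose first exon is much longer than the row counted here in MT1M, MT2A, MT1E and MT1F. In MT1M it has 527 bases, against 138. MT1M also had the most shared stretches of 36 bases, 121 against 115 for MT1H. Its percent over the rows counted may therefore be higher. Reads on MT1B were 0.0414% of those on MT2A in the control and 4.99% after BS008.

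As the series asks about AS, the share of each exon row in the reads of its gene was compared between the libraries. This was possible for 23 rows of the 8 genes with at least 20 reads in each library, which leaves out MT1B and MT3. The interval of the difference (Newcombe) included 0 for 17 of the 23 rows and excluded it for 6, which belong to MT1F, MT1G and MT1X. These intervals take each count as a separate read. A read that spans neighbouring exons may have been counted on each row it touches, and the intervals would then be inexact. Shares of rows of the same gene also depend on each other, so the 6 rows are not separate findings. The files do not assign rows to genes, so the same count was not made over the whole table, and whether exon shares differed more often here than elsewhere was not tested. The exons of MT2A held 23.8, 31.7 and 44.5% of its reads in the control and 23.6, 31.5 and 44.9% after BS008, so they differed by less than 0.5 percentage points at a 46.8-fold higher level. In MT1E, the exons held 28.3 and 71.7% in the control and 29.1 and 70.9% after BS008, a difference of 0.85 points (-0.64 to 2.30) for the first.

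MT1X differed most. Its middle row (56717077 to 56717298, 222 bases) held 39.9% (36.7 to 43.2%) of the gene's reads in the control and 49.4% (49.01 to 49.9%) after BS008, a difference of 9.50 points (6.21 to 12.7). Its last row (56717870 to 56718107) held 35.4% (32.3 to 38.7%) and 24.3% (23.9 to 24.7%), a difference of -11.1 points (-14.4 to -8.04). The first row differed by 1.64 points (-1.32 to 4.39). GENCODE gives the second exon of MT1X as 66 or 222 bases in transcripts of 3 exons and as 439 bases in one of 2 exons, of which the files list only the row of 222 bases, so reads of these forms were not separated. In MT1G, the first exon went from 22.1 to 18.8% of the reads (difference -3.33 points, -5.002 to -1.75) and the last went from 45.4 to 48.6% (3.18 points, 1.22 to 5.13). In MT1F, the first exon differed by -3.15 points (-5.48 to -0.963) and the second by 3.03 points (0.559 to 5.40). The last rows of MT1H (-8.05 points, -19.7 to 3.46) and MT1M (-4.11 points, -10.6 to 2.29) differed by more than any row of MT1G or MT1F. Their intervals were wide, on 68 and 230 control reads of the gene, so an interval that includes 0 does not show an unchanged share. These shares compare 2 libraries, not junctions, and MT1X and MT1G are among the members with the highest percent of shared 50-base stretches.

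**Figure D4:**
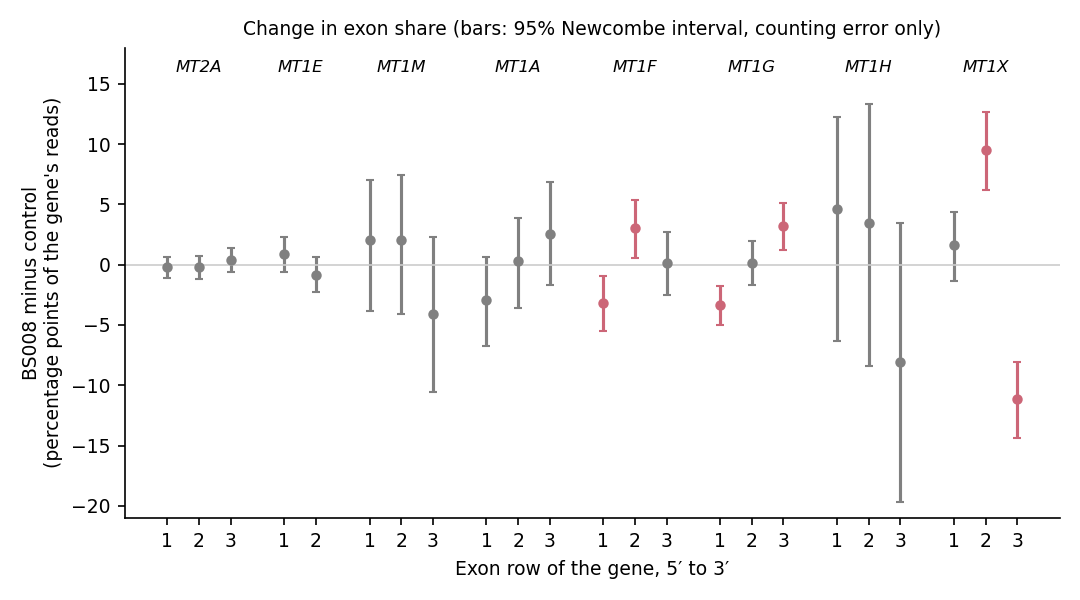
Difference in exon share, BS008 minus control, in percentage points of the gene's reads (vertical axis) for 23 exon rows of 8 genes (horizontal axis), with bars for the 95% Newcombe interval. The rows in red, of MT1F, MT1G and MT1X, have intervals without 0, and the middle and last rows of MT1X lie farthest from 0 at 9.50 and -11.1 points among these.

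A middle row of 66 or 69 bases was listed for 7 genes. The one of MT1B had 0 reads in the control and 7855 after BS008. For the other 6 genes the middle row was the most densely read per base in both libraries, and it held 46.0 to 55.2% of the gene's reads per base in the control and 47.2 to 59.0% after BS008. The lowest of both ranges was MT1A and the highest MT1F.

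The promoters are shown because metal response elements are known from the region close to the start of metallothionein genes. RefSeq promoters were at hand for 4 of the 10 members, MT2A, MT1B, MT1H and MT1X. The promoters of MT3, MT1E, MT1M, MT1A, MT1F and MT1G were not used here. The 250 bases before the transcription start are printed 5′ to 3′ from GRCh38.p14 (plus strand), with each match to the metal response core, TGCACNC or TGCGCNC on either strand, in capitals.
MT2A (chr16:56608334-56608583): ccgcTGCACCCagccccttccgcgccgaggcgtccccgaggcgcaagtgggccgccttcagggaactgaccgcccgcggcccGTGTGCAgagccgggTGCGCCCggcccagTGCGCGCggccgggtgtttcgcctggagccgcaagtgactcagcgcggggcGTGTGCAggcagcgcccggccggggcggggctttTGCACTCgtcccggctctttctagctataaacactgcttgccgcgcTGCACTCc
MT1B (chr16:56651636-56651885): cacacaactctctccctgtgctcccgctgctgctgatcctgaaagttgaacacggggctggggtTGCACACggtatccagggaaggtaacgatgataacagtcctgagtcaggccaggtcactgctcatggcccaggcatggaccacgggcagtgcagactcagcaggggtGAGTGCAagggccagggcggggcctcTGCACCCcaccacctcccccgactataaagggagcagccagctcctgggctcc
MT1H (chr16:56669564-56669813): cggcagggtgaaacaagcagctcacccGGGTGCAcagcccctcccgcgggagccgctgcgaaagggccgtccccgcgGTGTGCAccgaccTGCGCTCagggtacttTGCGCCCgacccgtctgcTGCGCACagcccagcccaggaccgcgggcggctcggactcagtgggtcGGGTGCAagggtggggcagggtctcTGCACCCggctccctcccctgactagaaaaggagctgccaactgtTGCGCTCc
MT1X (chr16:56682220-56682469): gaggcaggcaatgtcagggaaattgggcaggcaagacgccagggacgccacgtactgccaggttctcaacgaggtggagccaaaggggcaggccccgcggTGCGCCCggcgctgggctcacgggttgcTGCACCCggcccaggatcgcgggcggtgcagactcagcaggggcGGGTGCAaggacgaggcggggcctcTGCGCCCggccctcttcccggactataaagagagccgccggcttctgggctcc
Over the whole promoter window, which also takes in the first 50 transcribed bases, the number of metal response cores was 8 in MT2A and MT1H, 4 in MT1X and 3 in MT1B. Of 35116 RefSeq promoters, 29.6% held at least 1 such core and 2.30% held at least 3. MT1B thus had the fewest cores of the 4, all of the form TGCACNC, and a relation of core number to ratio was not tested. The core of the antioxidant response element, TGACNNNGC, which is bound by NRF2, was matched once each in MT2A, MT1B and MT1X and not in MT1H, and 13.3% of all promoters held it. The heat shock element, taken as GAA, TTC and GAA each 2 bases apart, was matched in none of the 4 and in 0.490% of all promoters. A TATA box, TATAAA, was matched 25 to 30 bases before the start of MT1B and MT1X and 24 to 29 bases before that of MT2A, and 11.5% of all promoters held this motif. No match was found in MT1H. A match describes letters in a sequence, and binding was not measured.

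**Figure D5:**
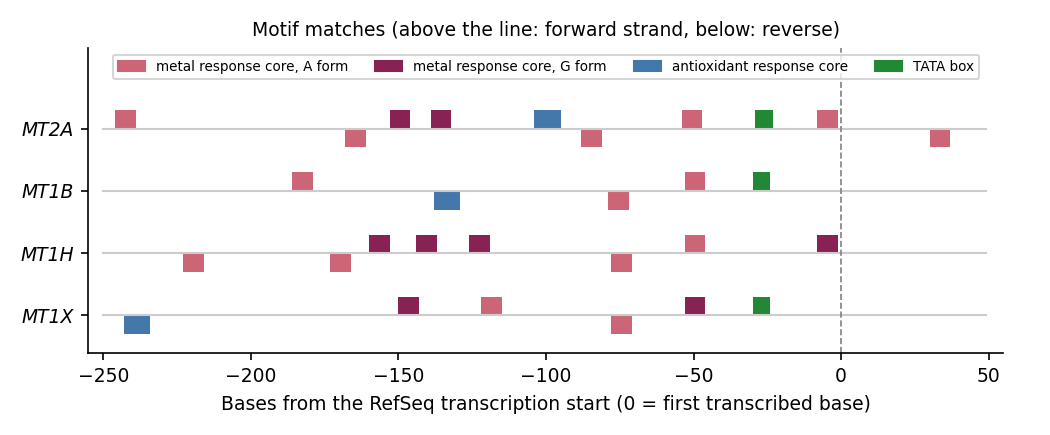
Position of motif matches in bases from the RefSeq transcription start (horizontal axis) in the promoters of MT2A, MT1B, MT1H and MT1X, above each line for the forward strand and below it for the reverse. Each promoter has a metal response core close to 50 bases before the start, and MT2A and MT1H have the most, with 8 each.

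Against the rest of the genome, the cluster held the rows with the largest log2 ratios, by choice. Of the 68432 rows with at least 100 reads in either library, the 10 with the highest log2 ratio all lay in the window, and 21 of the highest 30 did. At that read minimum 5.34% of all rows were at least 2-fold higher. The rows outside the window that were most like it, the 5 with the largest log2 ratio at that read minimum, lay on chromosomes 10, 1, 6 and 19. The row on chromosome 10 (79814289 to 79816570) had 67 reads in the control and 6344 after BS008, a log2 ratio of 6.12. On chromosome 1 (26364514 to 26365796) the counts were 4 and 1762 (5.87), and on chromosome 6 (27777842 to 27778313) they were 32 and 3168 (5.79). The 2 rows of chromosome 19 (2477486 to 2478257 and 2476135 to 2476628) had log2 ratios of 5.17 and 5.003. These ranks depend on the 0.5 CPM added. Without it, the 5 rows were 98.0-, 456-, 103-, 45.3- and 53.6-fold higher, in the order given. On 4 control reads, the row of chromosome 1 had an interval of 178 to 1676, which takes in the rows of MT1M at 209- to 248-fold. The rows of chromosomes 10 and 6 were above the window row of rank 10, of MT1X at 78.4-fold, with overlapping intervals. By level, 0 rows of the window exceeded 1000 RPKM in control cells, where 282 rows outside the mitochondrial genome did. After BS008 19 rows of the window were above this level, among 315 such rows.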

How the data were processed

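The authors deposited, for each of 2 libraries, raw counts of reads on 239322 exons and RPKM values computed from them. The RPKM values were recomputed from counts, exon length and library total with a relative difference of at most 1.76e-07. Libraries were made with an Illumina mRNA-seq kit, and hg19 is named in the submitters' processing notes. The aligner, counting tool and annotation are not given in the sources used here.

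Counts were summed over the rows inside each gene interval. The log2 ratio used CPM with a pseudocount of 0.5, for rows that reached 10 counts in one of the libraries. Nothing was tested, as 1 library for each condition gives no spread. Ratios and shares carry exact binomial intervals, counts exact Poisson intervals and differences of shares Newcombe intervals, the latter added after the data had been seen. All take each count as a separate read, and reads counted on several rows would make the intervals of gene and cluster totals too narrow. The call of changed rows and the interval of the ratio were tried on simulated counts without variation between libraries. Changes were put only on rows with many control reads. Ratios like that of MT1B and the intervals of shares were therefore not covered. All 10 genes of the rule, the other rows of the window and the 5 most similar rows elsewhere are named. Members and lists were chosen with earlier results of these data known. Protein comparisons, zinc and stress pathway genes and hepatocyte markers had been planned but were not analysed here, since no gene coordinates on hg19 and no protein sequences were used. The coding sequence of 1 member is not reported here. Alternatives were pseudocounts, count minimums, folds, scalings and choices of rows. Tools were Python 3.11.15, numpy 2.4.6, pandas 2.3.3, scipy 1.17.1, Biopython 1.88, matplotlib 3.10.9, R 4.3.3 and edgeR 4.0.16, which was used for TMM factors only.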

Additional observations from a re-analysis of the deposited data

How the results depend on the processing

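The median log2 ratio over the 9 genes with at least 10 reads was 5.78, and it was 5.55 when the longest row of each gene was used alone, a choice that drops the other exons. Under other pseudocounts and scalings it moved by less than the counting interval of MT1G, the gene at the median. Leaving out overlapping rows could not change it, as 0 rows of the 10 genes overlap another row. The share of the library on the cluster was 0.0392% (control) and 1.94% (BS008) when mitochondrial rows were left out of the total, which makes the total smaller. All 37 rows stayed at least 2-fold higher under other pseudocounts and scalings, where 2.30 to 8.73% of all rows were. The window was chosen for its increases, and some rows passed the read minimum only through BS008, so these counts are no test of the increase. With a minimum of 100 counts 35 of 35 rows were (5.34% of all rows), and without a minimum 37 of 42 (2.05%). At a fold of at least 4 the number was 36 of 37 (0.473% of all rows), and at 1.5 it was 37 of 37 (11.5%). Among single genes and exons, 24 alternative values moved by more than counting error, 89 did not, and none changed direction where it had been called. Most of the 24 were shares of a gene in the cluster counted per base of exon, which is another measure. Such a share has no direction that could change. The 89 include values that could not count as moved. These are the gene ratios without overlapping rows and the log2 ratios of MT3, whose ratio has no upper limit with 0 control reads. The log2 ratio of MT1B, with 4 control reads, was 8.57 to 11.21 under the other pseudocounts and 8.21 with its longest row alone. With the longest row alone, MT1H went from 7.23 to 6.58 and MT1X from 5.94 to 5.32. Without a pseudocount, the longest row of MT1H was 176-fold higher (125 to 255), which overlaps the interval of the gene (166 to 271). The longest row of MT1X was 43.4-fold higher (38.8 to 48.7), below the interval of the gene (59.3 to 67.8). The cause of this difference in MT1X was not tested. Counted per base of exon, the share of MT1E in the cluster went from 19.3 to 10.6% in the control and from 16.1 to 8.71% after BS008, as its rows are long. The log2 ratio of MT3, with 7 reads in all, was 0.33, and 1.21 with a pseudocount of 0.1. No paired analysis was possible because each condition has 1 library, and leaving out a library was not possible for the same reason. Depth limits only members with few reads, MT1B and MT1H in control cells and MT3 in both.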
